A study of Mus musculus with 6 samples.

Results

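Expression of 10 mouse genes of arachidonic acid metabolism was examined in kidney cortex. They were 6 genes of the cytochrome P450 4A family (Cyp4a10, Cyp4a12a, Cyp4a12b, Cyp4a14, Cyp4a31 and Cyp4a32), Cyp4b1, the Cyp2j genes Cyp2j5 and Cyp2j13, and Ephx2. They were taken by symbol from a count table of 24421 genes, and all 10 were among the 13977 genes tested. Their choice used the values of both comparisons described here, since the genes were selected on their differences between PT-I-PpoI and wild type and between library name forms. The values of these 10 genes are therefore given as a description, and no p-value is read for them.

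RNA came from PT-I-PpoI mice, with I-PpoI in the proximal tubular epithelium (3 libraries), and from wild type mice (3 libraries). I-PpoI is an endonuclease that makes double-strand breaks wherever its long target sequence occurs. The labels give no age, sex, strain, promoter or agent, and they leave unsaid whether the libraries of a group are from separate mice. The p-values then measure only the spread between these samples. The library names had a hyphen before the final number in 3 libraries (wild type replicates 2 and 3, PT-I-PpoI replicate 3) and were plain in the other 3. What these name forms mean is not given in the labels, which do not call them a batch.

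Arachidonic acid is a fatty acid held in membrane phospholipids and released by phospholipases. Cytochrome P450 enzymes of the CYP4A family hydroxylate it at its end to 20-HETE, a lipid that constricts vessels and inhibits sodium transport in the tubule, while CYP2J and CYP2C epoxygenases make epoxyeicosatrienoic acids (EETs). Soluble epoxide hydrolase, the product of Ephx2, turns EETs into diols, and the proximal tubule is the main site of the CYP4A enzymes in the kidney.

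The libraries held 13582540 to 20861021 counted read pairs. Levels are given in CPM, in which a library's counts are set relative to its total after adjustment by TMM factors. Between PT-I-PpoI and wild type, 19 of 13977 genes rose (0.136%) and 0 fell (0%) by edgeR's quasi-likelihood test at an adjusted p of 0.05, while 897 (6.42%) were higher and 784 (5.61%) lower at an unadjusted p of 0.05. DESeq2 called 133 higher and 61 lower. Between hyphenated and plain names, with the group as a term, 248 genes were higher (1.77%) and 180 lower (1.29%) by the same edgeR test. Markers of the proximal tubule were present in every library. The summed CPM of 13 straight tubule markers was 7182, 7244 and 7939 in PT-I-PpoI and 8688, 9206 and 9431 in wild type. Of these 13 markers 7 were above 0 and 6 below, with a median log2 difference of 0.01 and 0 that passed by edgeR. At an unadjusted p of 0.05 by edgeR, 2 of the 13 were higher and 5 lower. DESeq2 called 4 of the 13 lower and 0 higher. When edgeR's model included the name form, 1 of the 13 passed as lower and 0 as higher. The fatty acid carrier Slc27a2 made up most of the sum, at 4485, 4552 and 4824 CPM in PT-I-PpoI, against 5645, 5727 and 5721 CPM in wild type. The summed CPM of 15 convoluted tubule markers was 16479.8, 16080.2 and 20932 in PT-I-PpoI and 19119, 20468 and 22763 in wild type, with 13 of 15 below 0 and a median of -0.22. That of 11 thick ascending limb markers was 8365, 8349 and 8077 in PT-I-PpoI and 6566, 5904.5 and 5783 in wild type, with 11 of 11 above 0, a median of 0.43 and 1 that rose by edgeR. None of these marker genes was at 0. Of 14 collecting duct markers 13 were above 0 and 2 rose, with a median of 0.33. Their sums were 1518.5 to 1910.4 in PT-I-PpoI and 1331.5 to 1506 in wild type. Of 8 inner medulla markers 7 were tested, 6 were above 0 and 1 rose, with a median of 0.57. The sums of this list were 2822 to 3009.9 in PT-I-PpoI and 2555 to 2721 in wild type. The medians within plain and hyphenated names were -0.28 and -0.04 for convoluted and -0.2 and -0.12 for straight tubule markers. Cortex RNA cannot tell the makeup of the tissue sampled, such as fewer proximal tubule cells, from less RNA per cell.

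The 10 genes differed widely in level. Per kilobase of exon, Cyp4b1 had the highest mean, 1567 ± 354 CPM per kilobase in PT-I-PpoI and 2414 ± 390.1 in wild type (SD, n = 3 each). Cyp4a32 had the lowest, 6.18 ± 0.736 in PT-I-PpoI and 7.47 ± 1.16 in wild type (SD, n = 3 each). By the mean over all 6 libraries the order was Cyp4b1, Cyp4a10, Cyp4a14, Cyp2j5, Cyp4a31, Ephx2, Cyp4a12a, Cyp2j13, Cyp4a12b and Cyp4a32. Among neighbours in this order, the ranges over the 6 libraries were separate only between Ephx2 and Cyp4a12a and between Cyp2j13 and Cyp4a12b. Cyp4a14 was above Cyp2j5 in 3 of 6 libraries, so their order depended on the library.

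**Figure D1:**
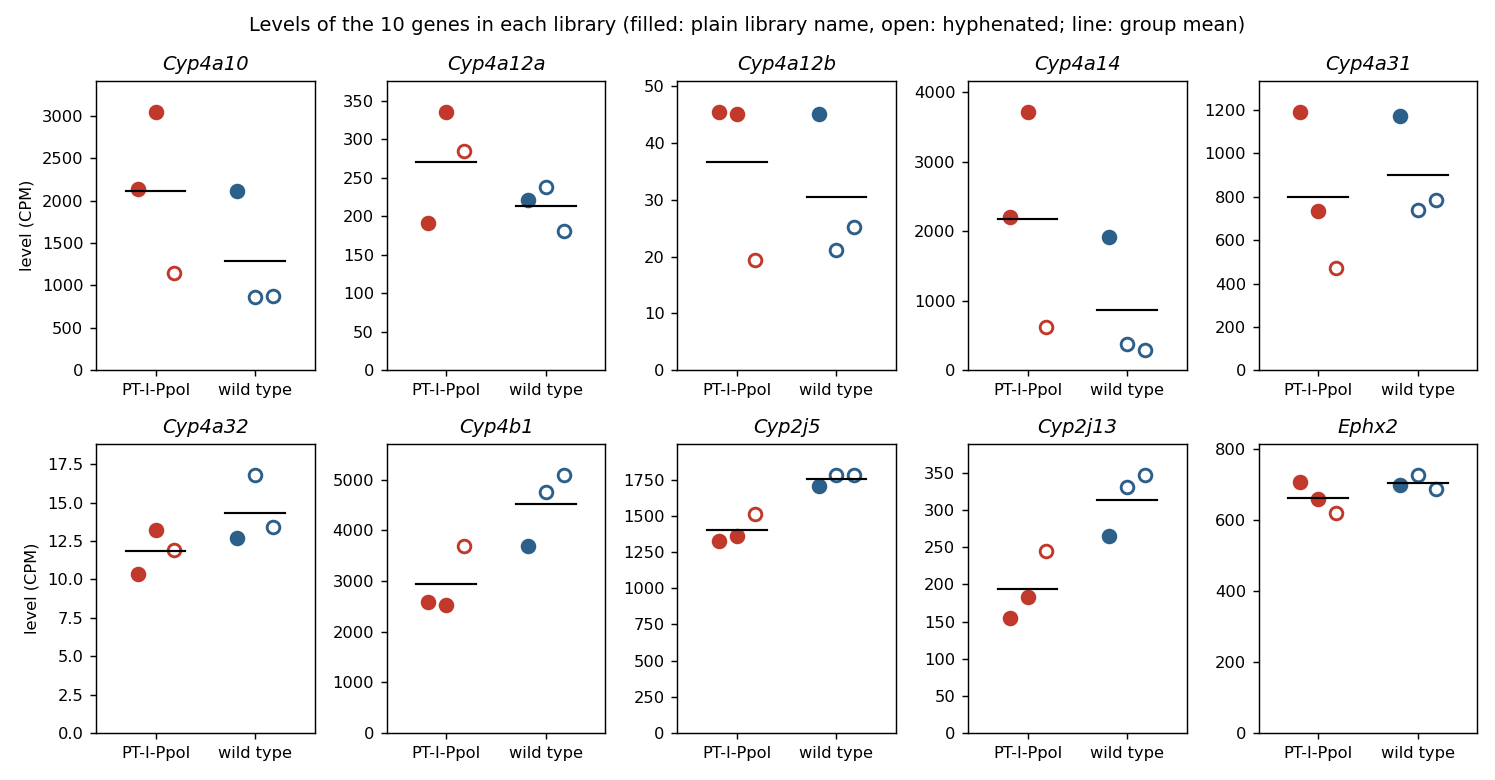
Levels of the 10 genes in CPM (vertical axes, linear and starting at 0, one panel per gene), with a point per library, PT-I-PpoI left of wild type, filled points for plain and open points for hyphenated library names, and lines at group means. Cyp4b1, Cyp2j5 and Cyp2j13 are below all wild type libraries in each PT-I-PpoI library, and Cyp4a10, Cyp4a12b and Cyp4a14 are lower in every hyphenated library than in any plain one.

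Within the Cyp4a group, several genes are near copies of each other, which bears on what their counts mean. All 6, with Cyp4b1, lie within 348.7 kb of chromosome 4 (mm10, positions 115299046 to 115647705). Over the whole coding sequence, Cyp4a12a and Cyp4a12b were 98.5% identical, Cyp4a10 and Cyp4a32 97.2%, Cyp4a10 and Cyp4a31 96.6%, and Cyp4a10 and Cyp4a14 75.6%. The first 90 coding bases, from GENCODE vM1 transcripts, are shown because they show how little separates the copies. Capitals mark the 5 positions at which the first 3 genes are not all the same, and the Cyp4a12 pair has 0 differences in this stretch.
Cyp4a10: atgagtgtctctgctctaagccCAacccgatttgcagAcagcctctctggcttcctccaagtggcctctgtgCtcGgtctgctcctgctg
Cyp4a31: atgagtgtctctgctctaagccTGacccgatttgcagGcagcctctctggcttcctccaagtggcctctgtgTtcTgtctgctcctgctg
Cyp4a32: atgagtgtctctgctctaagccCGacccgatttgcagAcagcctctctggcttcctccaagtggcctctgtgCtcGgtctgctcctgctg
Cyp4a12a: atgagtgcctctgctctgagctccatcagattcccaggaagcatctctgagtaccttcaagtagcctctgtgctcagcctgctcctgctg
Cyp4a12b: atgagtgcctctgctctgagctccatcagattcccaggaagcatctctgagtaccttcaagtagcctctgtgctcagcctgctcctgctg

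The reads were 100 bases long, per the labels. Of all windows of 100 bases in its transcript, Cyp4a12a shared 35.8% with another of the 10 genes and Cyp4a12b 36.2%, in both cases only with each other. The share was 20.1% for Cyp4a32, 12.7% for Cyp4a10 and 4.0% for Cyp4a31, and 0 windows were shared for Cyp4a14, Cyp4b1, Cyp2j5, Cyp2j13 and Ephx2. The counts of Cyp4a12a, Cyp4a12b, Cyp4a32, Cyp4a10 and Cyp4a31 are therefore uncertain, since the counting could drop or misplace reads from shared stretches. No exon of the 10 genes overlapped an exon of another gene in the table.

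Cyp4a10 and Cyp4a14, the Cyp4a genes with the most counts, were higher on average in PT-I-PpoI, but differed more between name forms than between groups. Both are known targets of PPAR-alpha, a nuclear receptor for fatty acids. Cyp4a14 (mm10, chromosome 4, 115486200 to 115496141, minus strand) had 2207, 3719 and 627 CPM in PT-I-PpoI replicates 1 to 3, against 1915, 384 and 286 CPM in wild type replicates 1 to 3. The 3 libraries with plain names were the high ones, and the groups overlapped. The log2 difference between PT-I-PpoI and wild type was 1.34 ± 0.78 (SE), and 0.77 ± 0.19 with the name form as a term. Between hyphenated and plain names it was -2.38 ± 0.20 (SE), with means of 432 and 2614 CPM. Within each name form, PT-I-PpoI was above wild type, by 0.58 among plain names and 0.92 among hyphenated names on the log2 scale. The log2 difference between the groups was 0.72 without PT-I-PpoI replicate 2 and 2.71 without wild type replicate 1, the ends of the range when 1 library at a time was left out.

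Cyp4a10 (mm10, chromosome 4, 115518287 to 115533649, plus strand) had 2141, 3046.5 and 1144.5 CPM in PT-I-PpoI, against 2109, 860.2 and 881 CPM in wild type. As for Cyp4a14, each plain library was above each hyphenated library, and the groups overlapped. The log2 difference was 0.72 ± 0.42 (SE) between PT-I-PpoI and wild type, 0.35 ± 0.13 with a term for the name form, and -1.23 ± 0.13 between hyphenated and plain names. The same libraries set the range here, 0.36 without PT-I-PpoI replicate 2 and 1.28 without wild type replicate 1.

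Of the other Cyp4a genes, Cyp4a12b was also lower in every hyphenated library. Its level was 45.5, 45.1 and 19.5 CPM in PT-I-PpoI, against 45.1, 21.2 and 25.3 CPM in wild type, a log2 difference of -1.07 ± 0.10 (SE) between hyphenated and plain names. Between PT-I-PpoI and wild type its log2 difference was 0.26 ± 0.35, and it was -0.11 ± 0.10 with the name form as a term, so its sign depended on that term. Its near copy Cyp4a12a, known as the main 20-HETE synthase of the male mouse kidney, ran from 192 to 336 CPM in PT-I-PpoI, against 181 to 238 CPM in wild type. The log2 difference of Cyp4a12a was 0.34 ± 0.19 (SE) between the groups and 0.01 ± 0.20 between the name forms. The near copies thus had different patterns over the 6 libraries.

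Cyp4a31 had 1191, 736 and 473 CPM in PT-I-PpoI, against 1171, 740.3 and 787.5 CPM in wild type. The groups overlapped, and so did the name forms. Its log2 difference was -0.17 ± 0.31 (SE) between the groups, and -0.82 ± 0.18 between hyphenated and plain names. The difference between the groups was 0.10 without PT-I-PpoI replicate 3 and 0.07 without wild type replicate 1, so its sign depended on these libraries. Cyp4a32 ran from 10.4 to 13.2 CPM in PT-I-PpoI, against 12.7 to 16.8 CPM in wild type, a log2 difference of -0.27 ± 0.15.

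Summed per kilobase of exon, the 6 Cyp4a genes reached 2489, 3409 and 1121 CPM per kilobase in PT-I-PpoI and 2362.5, 977 and 943 in wild type. The sums of the 3 plain libraries were all above those of the 3 hyphenated ones. The makeup of the sum differed too. Cyp4a10 gave 41.2 to 49.0% of it in PT-I-PpoI and 42.2 to 44.8% in wild type. Cyp4a14 gave 35.5, 43.7 and 22.4% in PT-I-PpoI and 32.5, 15.8 and 12.1% in wild type. The share of Cyp4a31 was 19.1, 8.61 and 16.8% in PT-I-PpoI and 19.8, 30.2 and 33.3% in wild type. Cyp4a10 thus had a similar share in all libraries while that of Cyp4a14 was lower in the hyphenated libraries.

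**Figure D2:**
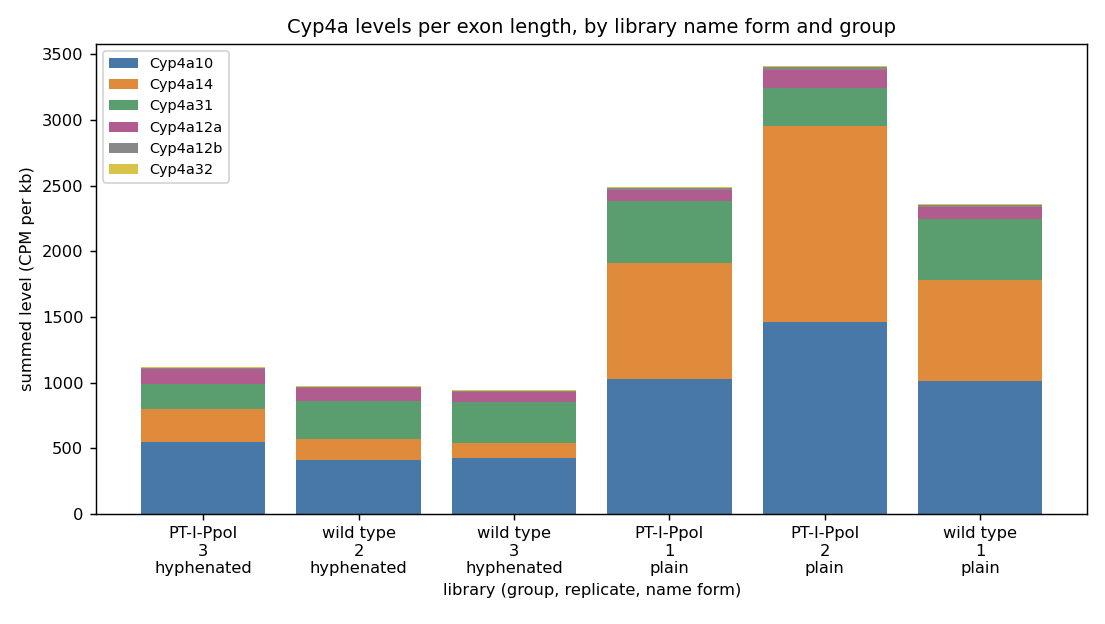
Summed level of the 6 Cyp4a genes in CPM per kilobase of exon (vertical axis, starting at 0), stacked by gene, one bar per library, with hyphenated names left of plain names and PT-I-PpoI left of wild type within each. The 3 plain libraries reach 2362.5 to 3409 and the 3 hyphenated libraries 943 to 1121, and the Cyp4a14 portion is smaller in each hyphenated bar.

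Cyp4b1, Cyp2j5 and Cyp2j13 lay lower in each PT-I-PpoI library than in any of the wild type libraries. They are shown with the 250 bases before their start sites, since these 3 genes had the same order of groups. RefSeq promoter windows (GRCm38.p6) matched 4 of the 10 genes, Cyp4b1, Cyp2j5, Cyp2j13 and Cyp4a32, and each sequence below is on the gene's strand, 5′ to 3′. Capitals mark matches, on either strand, to any of 5 motifs.
Cyp4b1, chr4:115647722-115647971, minus strand: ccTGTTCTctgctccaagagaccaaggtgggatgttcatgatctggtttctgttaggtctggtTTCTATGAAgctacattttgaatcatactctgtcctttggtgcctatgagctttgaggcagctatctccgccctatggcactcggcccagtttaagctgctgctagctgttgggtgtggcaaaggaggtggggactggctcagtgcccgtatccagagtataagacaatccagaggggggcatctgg
Cyp2j5, chr4:96664120-96664369, minus strand: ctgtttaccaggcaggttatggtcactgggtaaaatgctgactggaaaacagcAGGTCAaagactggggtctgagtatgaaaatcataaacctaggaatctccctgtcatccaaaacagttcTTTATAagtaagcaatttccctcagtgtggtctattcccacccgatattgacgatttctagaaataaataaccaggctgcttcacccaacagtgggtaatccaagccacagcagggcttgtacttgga
Cyp2j13, chr4:96077541-96077790, minus strand: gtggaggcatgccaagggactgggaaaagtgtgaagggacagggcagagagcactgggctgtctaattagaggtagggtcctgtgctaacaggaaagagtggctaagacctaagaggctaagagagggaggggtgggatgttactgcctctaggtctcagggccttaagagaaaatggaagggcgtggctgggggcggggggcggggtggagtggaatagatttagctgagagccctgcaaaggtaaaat

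The motifs searched were AGGTCA, the hexamer read by many nuclear receptors, its direct repeat DR1 (AGGTCA, any base, AGGTCA), the androgen and glucocorticoid receptor hexamer AGAACA, the STAT5 motif TTCNNNGAA and the TATA box TATAAA. The repeat contains the AGGTCA hexamer. They occurred in 14.0%, 0.0335%, 16.1%, 7.02% and 12.4% of 32851 promoter windows in that order. The Cyp4b1 window held AGAACA on the minus strand at -248 to -243 from the start site and TTCNNNGAA at -187 to -179. The Cyp2j5 window held AGGTCA at -197 to -192 and TATAAA on the minus strand at -128 to -123, and the Cyp2j13 window held 0 of the 5 motifs. A match is a run of letters and not a site shown to be bound.

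Cyp4b1, an enzyme of fatty acids and foreign compounds that follows androgen in the mouse kidney, lies on chromosome 4 (mm10, 115624728 to 115647705, minus strand). It had 2574, 2525.5 and 3695 CPM in PT-I-PpoI, against 3696, 4757 and 5095 CPM in wild type. The highest PT-I-PpoI library and the lowest wild type library were almost level, and the groups did not overlap. The log2 difference was -0.62 ± 0.18 (SE), and -0.48 ± 0.08 with the name form as a term. It was -0.54 within plain names and -0.41 within hyphenated names. Hyphenated libraries were higher than plain ones by 0.47 ± 0.08 on the log2 scale.

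Cyp2j5, an epoxygenase of the mouse proximal tubule (mm10, chromosome 4, 96627432 to 96664119, minus strand), had 1329, 1360 and 1512.5 CPM in PT-I-PpoI, against 1705, 1780.1 and 1785 CPM in wild type. These values lay close together within each group, and the groups were clearly apart. The log2 difference was -0.33 ± 0.10 (SE), and -0.34 within plain names and -0.24 within hyphenated names. The difference between hyphenated and plain names was 0.12 ± 0.07.

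Cyp2j13 (mm10, chromosome 4, 96042660 to 96077540, minus strand) had 154, 183 and 244 CPM in PT-I-PpoI, against 265, 331 and 348 CPM in wild type. Here too no PT-I-PpoI library reached the lowest wild type library. The log2 difference was -0.70 ± 0.17 (SE), and -0.66 within plain names and -0.47 within hyphenated names. Hyphenated libraries were higher than plain ones by 0.45 ± 0.09. Cyp2j5 and Cyp2j13 were 77.2% identical over their coding sequences and shared 0 windows of 100 bases, so this similarity leaves them separable.

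Ephx2, the soluble epoxide hydrolase (mm10, chromosome 14, 66084372 to 66124522), varied least. It had 707, 658 and 620 CPM in PT-I-PpoI, against 700, 728 and 687 CPM in wild type. The groups overlapped, and the log2 differences were -0.09 ± 0.09 (SE) between the groups and -0.06 ± 0.08 between the name forms. Differences of this size relative to their errors do not show that Ephx2 was the same in both groups.

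Across the 10 genes, 3 were lower in every PT-I-PpoI library (Cyp4b1, Cyp2j5 and Cyp2j13) and 0 were higher, against 7.74% of all tested genes that were lower and 9.23% that were higher in this way. By edgeR's adjusted p, 0 of 10 were called in either direction, where 0.136% of all genes were called higher and 0% lower. With the name form as a term, 2 of 10 (Cyp4b1 and Cyp2j13) were called lower, against 0.107% of all genes, and 0 higher, against 0.351%. DESeq2 called 3 of 10 lower, Cyp4b1, Cyp2j5 and Cyp2j13, against 0.437% of all genes, and 0 higher, against 0.952%. Without PT-I-PpoI replicate 3, edgeR called 2 of 10 lower, Cyp4b1 and Cyp2j13, against 2.56% of all genes, and 0 higher, against 1.84%. That setting leaves only plain names in PT-I-PpoI, so group and name form are harder to tell apart in it. Because the genes were chosen with these values known, nothing is read from these counts. The summed straight tubule markers were lower in PT-I-PpoI, mostly through Slc27a2. The sums of thick ascending limb, collecting duct and inner medulla markers were higher, as given above. Most of the inner medulla sum was Fxyd2, whose groups overlapped. The part of these marker differences in the lower Cyp4b1, Cyp2j5 and Cyp2j13 was not tested.

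Between name forms, 3 of 10 were lower in every hyphenated library (Cyp4a10, Cyp4a12b and Cyp4a14), against 13.1% of all genes, and the share of all genes higher in this way was 12.3%. By edgeR's adjusted p, 4 of 10 were called lower (Cyp4a10, Cyp4a12b, Cyp4a14 and Cyp4a31), against 1.29% of all genes, and 2 of 10 higher (Cyp4b1 and Cyp2j13), against 1.77%. Nothing is read from these counts either. The plain names made up 2 of 3 PT-I-PpoI libraries and 1 of 3 wild type libraries, so both comparisons use the same 6 libraries and part of any name form difference enters the difference between the groups.

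**Figure D3:**
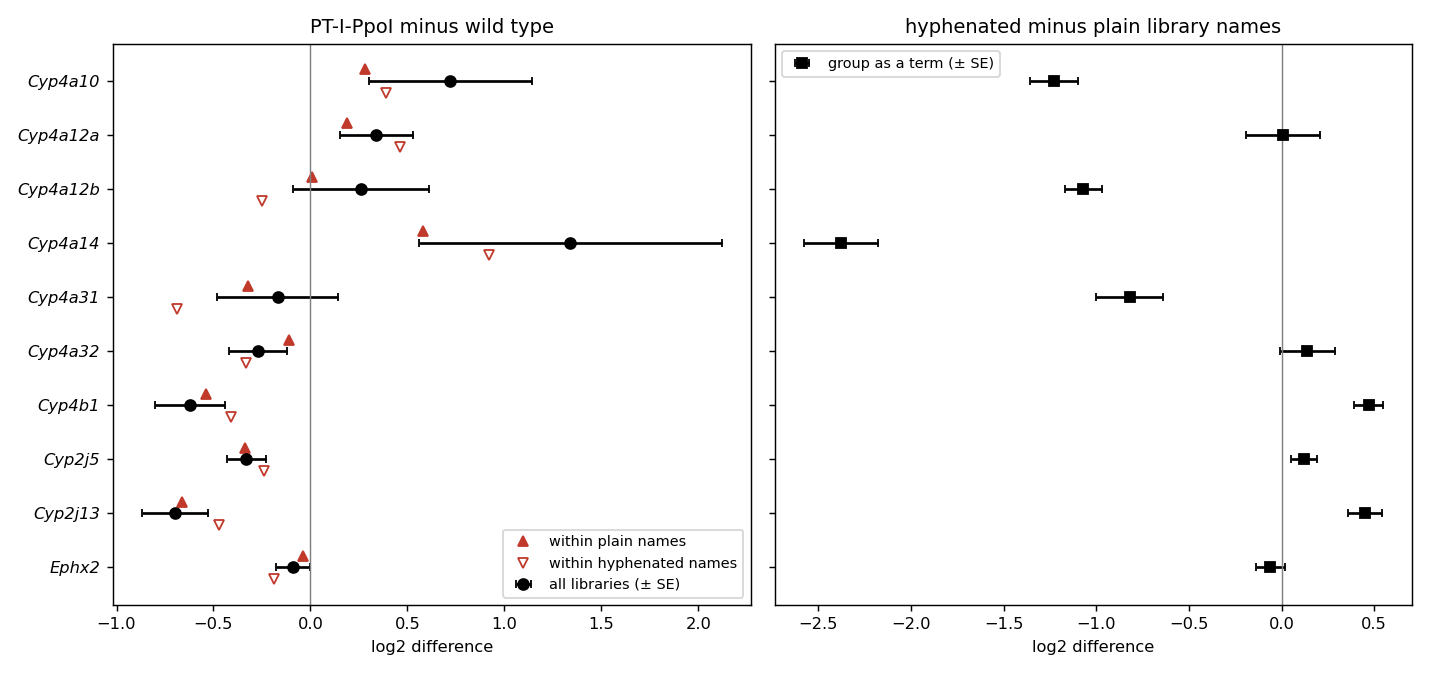
Log2 differences of the 10 genes (horizontal axis, with standard error bars) for PT-I-PpoI minus wild type (left) and hyphenated minus plain names with the group as a term (right), where triangles on the left are the differences within each name form and carry no error. The Cyp4a14 difference between the groups is 1.34, with 0.58 and 0.92 within plain and hyphenated names, beside -2.38 between the name forms, while Cyp2j5 is -0.33 beside 0.12.

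The genes that run beside these enzymes were described by lists. Of other Cyp4 genes, 7 of 13 were tested and 0 passed in either direction by edgeR, with a median log2 difference of 0.03 beside 0 over all genes. At an unadjusted p of 0.05, 1 was higher and 1 lower. Cyp4f16 averaged 10.7 CPM in PT-I-PpoI, against 8.35 CPM in wild type, and Cyp4f15 averaged 1.03 CPM in PT-I-PpoI, against 1.84 CPM in wild type. Of other Cyp2j genes, 7 were listed, 5 were in the count table, 4 were tested and 0 passed, with a median of -0.28. At an unadjusted p of 0.05, 1 was lower, Cyp2j11, at 180 ± 16.7 CPM in PT-I-PpoI, against 220.5 ± 12.8 CPM in wild type (SD, n = 3 each). No other tested Cyp4 or Cyp2j gene passed by edgeR's adjusted p.

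Of the Cyp2c family, the other epoxygenases, 16 symbols were listed and 15 were in the count table. These were mostly at few counts, and 3 were tested. All 3 were lower at an unadjusted p of 0.05, with a median log2 difference of -0.88, and 0 passed by edgeR's adjusted p. Cyp2c44, an epoxygenase of the mouse kidney, averaged 27.4 ± 2.11 CPM in PT-I-PpoI, against 35.0 ± 6.96 CPM in wild type (SD, n = 3 each). Cyp2c68 and Cyp2c69 averaged under 3 CPM in both groups. The summed CPM of 9 hepatocyte markers was 181 to 250.3 in PT-I-PpoI and 245.5 to 344 in wild type. Wild type replicate 3 stood apart in some liver genes. There, in raw counts and not CPM, Cyp3a11 had 178 counts, against 2 to 6 in the other libraries, and Cyp2c29 had 34 counts, against 0 to 5. The part of these genes in the Cyp2c values was not tested.

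Cytochromes P450 need electrons from NADPH through P450 oxidoreductase, the product of Por, or cytochrome b5. Of 5 donor genes 0 passed between PT-I-PpoI and wild type by edgeR's adjusted p, and 1 was lower at an unadjusted p of 0.05, with a median of -0.21. Por had 298, 302 and 384 CPM in PT-I-PpoI, against 296, 441 and 473 CPM in wild type. Its value was low in the 3 plain libraries. It rose by 0.49 ± 0.08 (SE) on the log2 scale between hyphenated and plain names (edgeR adjusted p = 0.01913). Cyb5a, cytochrome b5, averaged 1050.4 ± 83.0 CPM in PT-I-PpoI, against 1267 ± 73.0 CPM in wild type (SD, n = 3 each), and did not pass.

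Of the other epoxide hydrolases 3 of 4 were tested and 0 passed by edgeR, with a median of 0.35, and 1 was higher at an unadjusted p of 0.05. That gene was Ephx1, the microsomal epoxide hydrolase, with 81.7, 76.7 and 63.7 CPM in PT-I-PpoI, against 54.9, 60.6 and 58.8 CPM in wild type. The groups did not overlap, and the log2 difference was 0.35 ± 0.10 (edgeR adjusted p = 0.2667). Gpr75, reported as a receptor of 20-HETE, had 13 counts over the 6 libraries and was not tested. Of 19 genes of arachidonate release and reacylation 15 were tested, of 13 cyclooxygenase genes 12 and of 12 lipoxygenase genes 7. Of these, 0 passed between the groups by edgeR, with medians of 0.14, 0.03 and 0.18, and at an unadjusted p of 0.05 each list had 1 gene higher, with 0, 1 and 1 genes lower in the same order of lists. Between name forms 1 gene of each passed by edgeR. Pla2g16, a phospholipase, fell by 0.44 (edgeR adjusted p = 0.04923), Cbr1, a carbonyl reductase, fell by 0.66 (edgeR adjusted p = 0.03607), and Ggt1, a gamma-glutamyl transferase that also acts on leukotrienes, rose by 0.52 (edgeR adjusted p = 0.009131), all in hyphenated relative to plain libraries on the log2 scale.

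PPAR-alpha, the fatty acid receptor that drives Cyp4a10 and Cyp4a14, and its partner RXR-alpha were measured with targets of theirs, 24 genes in all, and the list leaves out the 10 genes. Between PT-I-PpoI and wild type 0 of 24 passed by edgeR and 1 was higher at an unadjusted p of 0.05, with a median of 0.17. Ppara had 113, 125.5 and 142 CPM in PT-I-PpoI, against 153, 135 and 152 CPM in wild type, and Rxra had 149, 161 and 188 CPM in PT-I-PpoI, against 186, 192 and 199 CPM in wild type. Neither passed. Between name forms 8 of 24 fell and 0 rose by edgeR's adjusted p, against 1.29% and 1.77% of all genes. The median was -0.40 beside -0.01 over all genes, and 20 of 24 were below 0. The list was chosen with earlier results of these data known, so these counts are a description.

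Pdk4, a kinase that slows glucose oxidation, had 212, 491 and 40.5 CPM in PT-I-PpoI, against 301, 24.9 and 21.0 CPM in wild type, and between hyphenated and plain names it fell by 3.42 ± 0.30 on the log2 scale (SE, edgeR adjusted p = 0.001021). Acot1, an acyl-CoA thioesterase, fell by 1.32 ± 0.17 (edgeR adjusted p = 0.007337). Plin2, Ehhadh, Pex11a, Acaa1b and Etfdh also fell, by 0.42 to 1.26 on the log2 scale. The low libraries of Pdk4 were the hyphenated ones, as for Cyp4a14.

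Cyp4a12a and Cyp2j5 are known to differ between male and female mice, so a list of 15 sex-biased proximal tubule genes was set beside them. In PT-I-PpoI 13 of 15 were lower, with a median of -0.46. That median was -0.48 within plain names and -0.07 within hyphenated names. The list mixes genes higher in males with genes higher in females. The 2 genes higher in PT-I-PpoI were Prlr (log2 difference 0.93 ± 0.65, SE) and Slc7a12 (1.91 ± 0.88). By edgeR's adjusted p 0 of the 15 passed in either direction, while 6 were lower at an unadjusted p of 0.05 and DESeq2 called 3 lower. Between name forms 8 rose and 2 fell by edgeR, against 1.77% and 1.29% of all genes, with a median of 0.43. This list too was chosen with earlier results known, so its counts are a description. Prlr, the prolactin receptor, is higher in female kidneys. In hyphenated relative to plain libraries it fell by 2.10 on the log2 scale (edgeR adjusted p = 0.0004373). In the same comparison Slc7a12, a carrier also higher in females, fell by 2.95 (edgeR adjusted p = 0.006542). There Slco1a1, an organic anion carrier that is higher in males, rose by 1.52 (edgeR adjusted p = 0.02841). Y-linked genes had counts in all 6 libraries, and the 4 tested had a median log2 difference of -0.18 between the groups. Of these, Eif2s3y had 51.8, 46.0 and 47.8 CPM in PT-I-PpoI, against 51.3, 53.2 and 50.2 CPM in wild type. Xist, the RNA of the inactive X chromosome, had 51, 4 and 4 counts in PT-I-PpoI, against 2, 1 and 1 counts in wild type, so PT-I-PpoI replicate 1 stood apart. The part of this in the sex-biased genes was not tested. Of 11 genes of sex hormone, growth hormone and prolactin signalling 0 passed by edgeR between the groups, with a median of -0.07 and 1 gene on each side at an unadjusted p of 0.05, and 0 passed between the name forms.

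**Figure D4:**
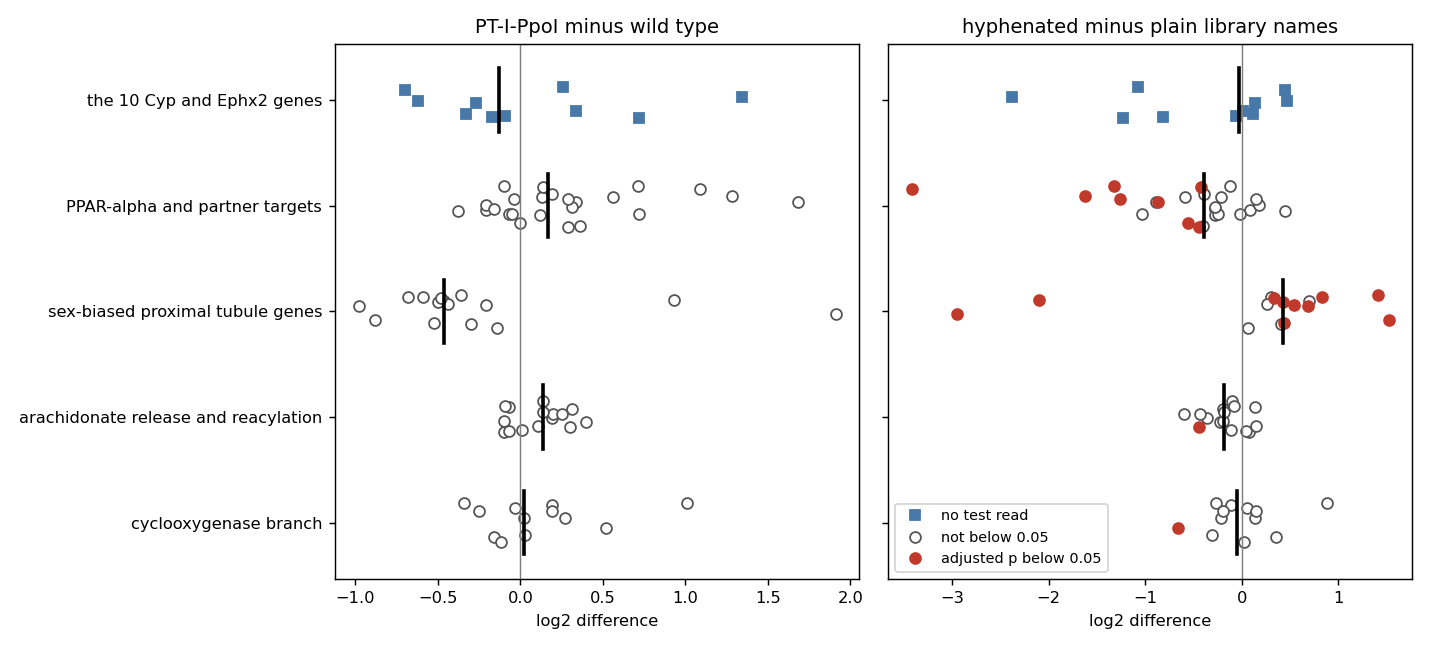
Log2 differences of the genes of 5 groups (horizontal axes) for PT-I-PpoI minus wild type (left) and hyphenated minus plain names (right), with black bars at medians and filled circles for genes with an edgeR adjusted p under 0.05 and open circles for the other genes. The list of PPAR-alpha genes has a median of 0.17 on the left and -0.40 on the right, and squares mark the 10 genes, for which no test is read.

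Likeness of pattern was measured over the 6 libraries as the root mean square (RMS) difference in log2 CPM after centring each gene on its mean, over 9464 genes with a mean of at least 10 CPM. The genes nearest to Cyp4a10 were Acot1 at 0.13, Aldh1a1 at 0.17 and Ddit4l at 0.17, against a spread of Cyp4a10 itself of 0.70. For Cyp4a14, with a spread of 1.38, Prlr at 0.49 and Pdk4 at 0.50 were among the nearest. Nearest to Cyp4b1 was Atp11a, one of the straight tubule markers, at 0.04, then Slc26a1 at 0.07 and Agps at 0.08, against a spread of 0.39, and Atp11a was also nearest to Cyp2j13, at 0.06. For Cyp2j13, with a spread of 0.42, Slc22a30 at 0.10 and Gcnt1 at 0.11 came next. The genes nearest to Cyp4a12b were Id4 at 0.05 and Abcb1b and Slc25a30 at 0.11, against a spread of 0.53. Those nearest to its near copy Cyp4a12a were Slc10a2 at 0.12, Cxx1b at 0.14 and Tmie at 0.16, against a spread of 0.31, and the pair shared none of them. For Cyp4a31, with a spread of 0.45, they were Spns3 at 0.15, Hao2 at 0.18 and Car9 at 0.20. The smallest spreads were those of Cyp4a32 at 0.21, Cyp2j5 at 0.18 and Ephx2 at 0.08, and the nearest genes were Rara to Cyp4a32, at 0.02, and Tmed2 to Cyp2j5, at 0.01. These distances describe 6 libraries and carry no test.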

How the data were processed

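RNA-seq libraries from kidney cortex (3 PT-I-PpoI, 3 wild type) were prepared with a stranded kit and read as pairs, per the labels. The authors deposited raw counts of read pairs for 24421 genes, mapped with HISAT2 per the labels and counted over exons, per the file headers with featureCounts 1.5.2. The header sets no strand option and no option for reads with several positions. It names mm10, while the labels name mm9. The coordinates of 10 of 10 genes overlapped their positions in GRCm38.p6 (mm10), and those of 0 of 10 in NCBIM37 (mm9). The authors also deposited log2 values on the regularized log (rlog) scale for 17918 genes, used here only for an alternative test. The submitters' processing notes name DESeq2.

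Counts were analysed in R 4.3.3 with edgeR 4.0.16. The filter with a minimum count of 10 left 13977 genes, TMM factors scaled the libraries, and a quasi-likelihood test, two-sided, was adjusted by the Benjamini-Hochberg method over all genes, with a threshold of 0.05. The name form comparison carried the group as a term. DESeq2 1.42.0, limma 3.58.1, other size factors and filters, the name form as a term, a replicate block and leaving out each library were tried as alternatives. Exon lengths of the deposited table gave CPM per kilobase, and log2 CPM used a prior count of 2. Replicates of each group differed by more than sampling noise.

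The 10 genes and the lists beside them were chosen with earlier results of these data known. Named beside them were Por, Ppara, Rxra, Gpr75 and Ephx1, up to 2 genes per list with the smallest p between the groups, genes that passed, and the 3 genes nearest in pattern to each of the 10. Other genes were chosen after their values were seen. Some genes that this rule names are not reported here. Counting intervals were not used, and depth limits genes of few counts, such as Gpr75.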

Additional observations from a re-analysis of the deposited data

Results flagged for a closer look

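Cyp4a12b was flagged because its group difference was almost none within plain names and negative within hyphenated names. The PT-I-PpoI minus wild type difference was 0.01 on the log2 scale within plain names and -0.25 within hyphenated names. With 1 wild type library in the plain form and 1 PT-I-PpoI library in the hyphenated form, this difference was not tested. Cyp4a12b shares 36.2% of its windows of 100 bases with Cyp4a12a, and the part of shared reads was not tested.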

How the results depend on the processing

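Counts of genes that passed between PT-I-PpoI and wild type depended on the method. By edgeR 19 genes were higher and 0 lower. The counts were 44 and 3 with no filter on low counts, 133 and 61 by DESeq2 and 49 and 15 with the name form as a term. Leaving out 1 library gave 0 to 261 higher and 0 to 364 lower, with the highest counts without PT-I-PpoI replicate 3. It gave 0 to 2 of the 10 genes as lower, the 2 also without that library, against 3 by DESeq2 and 2 with the name form as a term. PT-I-PpoI replicate 3 is the only PT-I-PpoI library with a hyphenated name. Without it, group and name form are harder to tell apart. Of the genes of the pathway lists, the marker lists apart, 0 passed in either direction by edgeR. With no filter 1 was higher, by DESeq2 1 was higher and 3 lower, and with the name form as a term 1 was lower. Leaving out 1 library gave 0 to 3 higher and 0 to 10 lower.

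Between hyphenated and plain names, 248 genes were higher and 180 lower, with 420 higher and 253 lower by DESeq2, and leaving out 1 library gave 72 to 546 higher and 52 to 284 lower. Of the 10 genes, 2 were higher and 4 lower. When the group was left out of the model, 0 were higher and 3 lower, beside 208 higher and 155 lower of all 13977 genes. Leaving out 1 library gave 0 to 2 higher (0 without PT-I-PpoI replicate 1 or 3 or wild type replicate 3) and 3 to 4 lower. The 10 genes were chosen on both comparisons, so nothing is read from their counts under any setting. 

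The replicate numbers are those of the sample titles, and the replicate block used them. The correlations of same-numbered deviations were 0.22, -0.13 and 0.16, and not every library correlated best with its own number. The final numbers of the library names instead join PT-I-PpoI replicate 3 with wild type replicate 2, which had 0.18. Whether the libraries are paired cannot be told from these correlations. With the replicate block, 33 genes were higher and 7 lower between the groups, including 1 of the 10 genes as lower, and 26 were higher and 29 lower between name forms, with 0 of the 10 higher and 3 lower. Only replicate number 2 held both name forms, plain in PT-I-PpoI and hyphenated in wild type. With the block, the name form difference therefore depends on those 2 libraries once the group is accounted for. The cause of these shifts was not tested. Fold changes under the alternatives were computed between name forms for the 10 genes only. Between name forms, Cyp4a31 had a log2 difference of -0.35 with that block and -0.82 without it. On the deposited rlog values Cyp4a14 had -1.46 and Cyp4a10 -0.76 between name forms.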
